A study of Arabidopsis thaliana with 11 samples.

Results

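SWEET11 (locus AT3G48740), AT5G18840 and APL4 (AT2G21590) are Arabidopsis genes of sugar transport and starch synthesis, each read by 1 probe set of an Affymetrix ATH1 array. They are 3 genes among the 22746 probe sets that are not controls, and all 3 were among the 17910 probe sets kept after a filter on low values (at least 4 on the log2 scale on at least 4 of 11 arrays). The genes were chosen because they differed between plants deficient in the NGATHA (NGA) transcription factors and wild type. Their values in that contrast are therefore given as a description, with no test. Tests are given for other contrasts on the same arrays. A choice by a clear difference may favour genes with little spread within the groups, so these contrasts are not fully independent of it. Tests are also given for lists of other genes of sugar transport and starch and of tissue markers. Those lists were themselves chosen with earlier results of these data known.

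The study profiled inflorescences of plants lacking NGATHA function, a small group of B3-domain regulators with shared roles in forming the style and stigma. All 11 arrays came from the Ler accession at 30 days after sowing, from flowers at stage 12 and younger. The wild-type group had 7 arrays, of which replicates 2, 3 and 4 carry a note on growth in long days. The quadruple mutant, which carries the alleles nga1-1 and nga2-1 together with nga3-1 and nga4-1, had 2 arrays. The amiR-NGA group, 2 arrays, carried an artificial microRNA against NGA1 to NGA4 driven by 35S, a broadly active viral promoter. The 4 arrays of the quadruple mutant and amiR-NGA are together called nga-deficient. The labels used here do not say how many transgenic lines or plants were pooled, or whether replicates were grown separately, and the p-values therefore cover nothing beyond the spread among these arrays, which may be technical.

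SWEET11 is a plasma-membrane exporter that, with SWEET12, moves sucrose out of phloem parenchyma cells so that it can be loaded into the phloem for transport to sinks such as flowers. AT5G18840 is annotated as a member of the major facilitator superfamily and belongs to the ERD6-like group of sugar transporters, several of which move sugars across the vacuolar membrane. APL4 is a large, regulatory subunit of ADP-glucose pyrophosphorylase, the plastid enzyme that makes ADP-glucose, the glucose donor for starch synthesis.

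2 features of the arrays bear on the values below. NGA1 went against the labels: it read 5.60 to 5.99 on the log2 scale on the arrays labelled wild type 1 to 4, and 10.50 to 11.003 on those labelled wild type 5 to 7. The quadruple mutant arrays read 6.50 and 6.95 for NGA1 and the amiR-NGA arrays 4.88 and 5.02. The other NGATHA genes did not split wild type in this way. NGA3 read 5.21 to 5.84 on the 7 wild-type arrays and 4.06 to 4.66 on the nga-deficient arrays, and NGA4 5.89 to 6.54 and 4.45 to 4.84. NGA2 read 5.19 to 5.52 in wild type, 4.68 and 4.77 in the quadruple mutant, and 5.34 and 5.47 in amiR-NGA. Every direction given here is relative to the arrays labelled wild type, and values of SWEET11, APL4 and AT5G18840 against each subset of them are given as well. In addition, an actin control had a 3′ minus 5′ log2 difference of 2.05 to 2.11 on wild type 1, wild type 2 and quadruple mutant 1, against 1.09 to 1.31 on the other 8 arrays. A GAPDH control split the same way, at 1.05 to 1.29 against 0.08 to 0.48. A further actin control did not, at 3.45 to 4.17 against 4.05 to 4.35. The large actin difference named below is that of the first control. The floral identity and phloem markers could check the tissue only poorly, because 2 of 17 and 0 of 9 matched a probe set of 1 gene, and neither of the 2, UFO and CLV3, passed the filter.

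SWEET11, the sucrose exporter, read lower on each of the 4 nga-deficient arrays than on all 7 labelled wild type. The arrays of wild type 1 to 7 read 8.95, 8.39, 8.63, 9.03, 8.16, 8.26 and 8.96 on the log2 GC-RMA scale. The quadruple mutant arrays 1 and 2 read 7.93 and 7.20, and the amiR-NGA arrays 1 and 2 read 6.90 and 7.64. The highest nga-deficient array, quadruple mutant 1, lay 0.23 below the lowest wild-type array, wild type 5. The means were 8.63 ± 0.36 (SD, n = 7) in wild type, 7.56 ± 0.52 (SD, n = 2) in the quadruple mutant and 7.27 ± 0.52 (SD, n = 2) in amiR-NGA. The mean of the 4 nga-deficient arrays lay 1.21 log2 units below wild type (difference -1.21, SE 0.22, 95% interval -1.69 to -0.73), a 2.31-fold lower level. Fewer cells of a type and less RNA per cell cannot be told apart in these whole inflorescences, for SWEET11 as for the other genes.

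AT5G18840, the ERD6-like transporter, read higher on each of the 4 nga-deficient arrays than on all 7 labelled wild type. Wild type 1 to 7 read 5.31, 5.52, 5.18, 5.98, 6.13, 5.65 and 5.88. The quadruple mutant arrays read 6.39 and 7.15, and the amiR-NGA arrays 7.47 and 6.83. The lowest nga-deficient array, quadruple mutant 1, was 0.26 above the highest wild-type array, wild type 5. The wild-type mean was 5.66 ± 0.35 (SD, n = 7), that of the quadruple mutant 6.77 ± 0.54 (SD, n = 2) and that of amiR-NGA 7.15 ± 0.46 (SD, n = 2). The nga-deficient mean was 2.45-fold above wild type (log2 difference 1.30, SE 0.22, 95% interval 0.82 to 1.77). For both transporters quadruple mutant 1 was the nga-deficient array nearest to wild type and amiR-NGA 1 the farthest from it.

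APL4, the ADP-glucose pyrophosphorylase large subunit, was also higher on all 4 nga-deficient arrays. Wild type 1 to 7 read 4.83, 4.86, 5.48, 5.9996, 5.74, 6.01 and 5.46. The quadruple mutant arrays read 7.04 and 6.47, and the amiR-NGA arrays 6.71 and 6.66, both between the 2 quadruple mutant values. The lowest nga-deficient array, quadruple mutant 2, was 0.46 above the highest wild-type array, wild type 6. APL4 averaged 5.48 ± 0.49 (SD, n = 7) in wild type, 6.76 ± 0.40 (SD, n = 2) in the quadruple mutant and 6.69 ± 0.03 (SD, n = 2) in amiR-NGA. The nga-deficient mean was 2.36-fold higher than wild type (log2 difference 1.24, SE 0.23, 95% interval 0.73 to 1.75).

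The 2 lowest APL4 values of wild type, 4.83 and 4.86, and its highest value of all, 7.04, were on the 3 arrays with the large actin 3′ minus 5′ difference. Without those 3 arrays the wild-type mean was 5.74 ± 0.27 (SD, n = 5) and the nga-deficient mean 6.62 ± 0.12 (SD, n = 3), a log2 difference of 0.88 or 1.84-fold. The quadruple mutant difference of APL4 was then 0.74 (1.67-fold), from 1 array, in place of 1.28, and the amiR-NGA difference 0.95. The transporters moved less when these arrays were left out: the log2 difference of SWEET11 was -1.36 and that of AT5G18840 was 1.39.

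**Figure D1:**
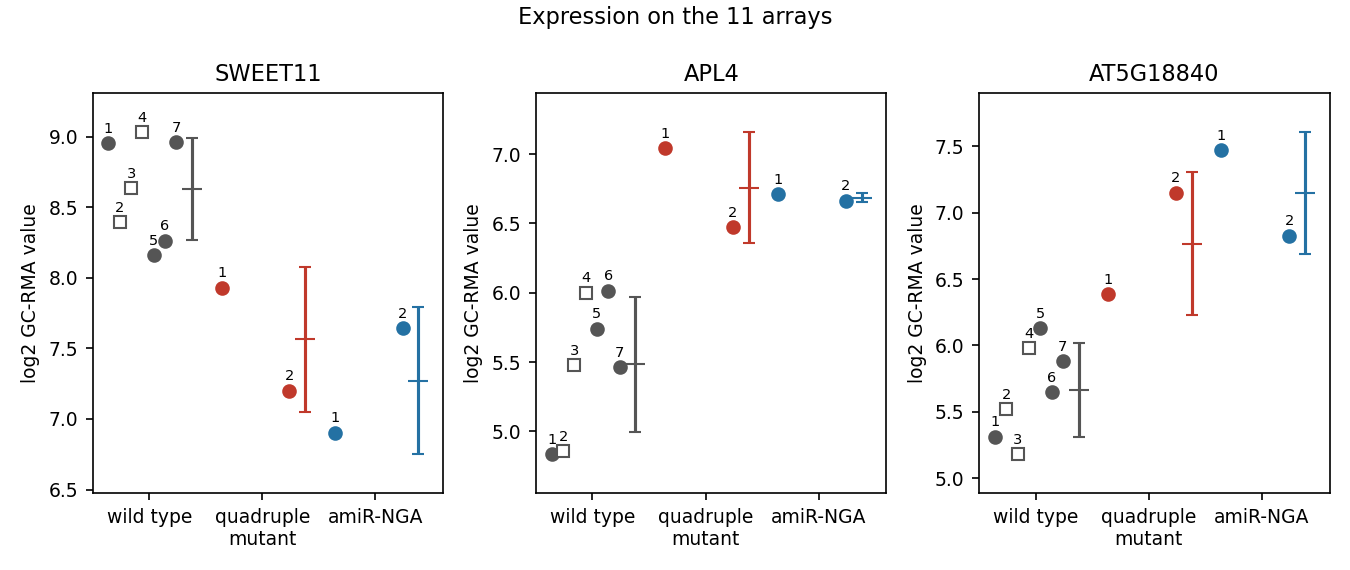
Log2 GC-RMA value (y axis) of each gene on each of the 11 arrays, by group (x axis); numbers are replicates, open squares mark the long-days note, and bars are mean ± SD. SWEET11 lies between 6.90 and 7.93 on the nga-deficient arrays, below all wild-type arrays, and APL4 and AT5G18840 lie above all wild-type arrays.

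The separation of the 4 nga-deficient arrays from all 7 wild-type arrays held for 3 of 3 genes, and for 7.38% of the kept probe sets as a whole (1322, of which 3.06% were higher and 4.32% lower). Since the genes were chosen from this contrast, nothing is read from that count. The differences had the same direction against each subset of the wild-type arrays, which the separation of the groups fixed in advance. Against wild type 1 to 4, the arrays with low NGA1, the log2 differences were -1.34 for SWEET11, 1.43 for APL4 and 1.46 for AT5G18840. Against wild type 5 to 7, the arrays with high NGA1, they were -1.04, 0.98 and 1.07 in the same order. Within wild type the 2 subsets averaged 8.75 ± 0.30 (SD, n = 4) and 8.46 ± 0.44 (SD, n = 3) for SWEET11. For APL4 the subsets averaged 5.29 ± 0.56 (SD, n = 4) and 5.74 ± 0.28 (SD, n = 3), and for AT5G18840 5.50 ± 0.35 (SD, n = 4) and 5.88 ± 0.24 (SD, n = 3). For all 3 genes wild type 5 to 7 were thus nearer to the nga-deficient arrays than wild type 1 to 4, by less than the sum of the 2 SDs.

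The quadruple mutant and amiR-NGA were each set against the same 7 wild-type arrays, so the 2 sets of differences share their controls. SWEET11 was 2.09-fold lower in the quadruple mutant (log2 difference -1.06, SE 0.29) and 2.56-fold lower in amiR-NGA (-1.36, SE 0.29). AT5G18840 was 2.15-fold higher in the quadruple mutant (log2 difference 1.10, SE 0.28) and 2.80-fold higher in amiR-NGA (1.49, SE 0.28). The 2 transporters thus had their larger differences in amiR-NGA. APL4 was 2.42-fold higher in the quadruple mutant (log2 difference 1.28, SE 0.31) and 2.30-fold higher in amiR-NGA (1.20, SE 0.31). With 2 arrays a genotype, single arrays weighed on these values: the quadruple mutant difference of SWEET11 was -1.43 without quadruple mutant 1 and -0.70 without quadruple mutant 2. That of AT5G18840 was 1.49 without quadruple mutant 1 and 0.72 without quadruple mutant 2.

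Whether the mutant and the knock-down differed from each other was tested directly with limma, adjusted over all kept probe sets. In this contrast 0.134% of the kept probe sets passed (0.101% higher and 0.0335% lower in the quadruple mutant), and none of the 3 genes did. SWEET11 was 0.29 higher in the quadruple mutant than in amiR-NGA on the log2 scale (SE 0.36, 95% interval -0.49 to 1.07, limma adjusted p = 0.884). APL4 differed by 0.07 (SE 0.39, 95% interval -0.77 to 0.91, limma adjusted p = 0.979). AT5G18840 differed by -0.38 (SE 0.35, 95% interval -1.14 to 0.37, limma adjusted p = 0.849). For SWEET11 and AT5G18840 the arrays of the 2 genotypes overlapped, and the APL4 arrays of amiR-NGA lay within the quadruple mutant pair. The intervals allow a difference of up to 0.91 to 1.14 log2 units between the genotypes, so the order of the 2 genotypes was not settled for any of the 3 genes. Unadjusted p-values under 0.05 were found for 1292 of all kept probe sets, and those of the 3 genes were 0.429, 0.858 and 0.293.

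The long-days note split wild type into 3 arrays with it and 4 without, the only growth difference the labels give. SWEET11 averaged 8.69 ± 0.32 (SD, n = 3) with the note and 8.58 ± 0.43 (SD, n = 4) without. APL4 averaged 5.44 ± 0.57 (SD, n = 3) and 5.51 ± 0.51 (SD, n = 4), and AT5G18840 5.56 ± 0.40 (SD, n = 3) and 5.74 ± 0.35 (SD, n = 4). The arrays with and without the note overlapped for each gene. The log2 difference (with minus without) was 0.10 for SWEET11 (SE 0.25, 95% interval -0.48 to 0.68), -0.07 for APL4 (SE 0.33, -0.81 to 0.68) and -0.18 for AT5G18840 (SE 0.24, -0.73 to 0.37). None passed (limma, adjusted p = 1.00 for each, unadjusted p = 0.697, 0.841 and 0.471), and 0% of all kept probe sets did. By limma 289 probe sets had an unadjusted p under 0.05 in this contrast, and 446 passed when arrays were weighted by their quality. With those weights the log2 difference was 0.39 for SWEET11, -0.26 for APL4 and -0.59 for AT5G18840 (limma adjusted p = 0.136, 0.341 and 0.0959).

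**Figure D2:**
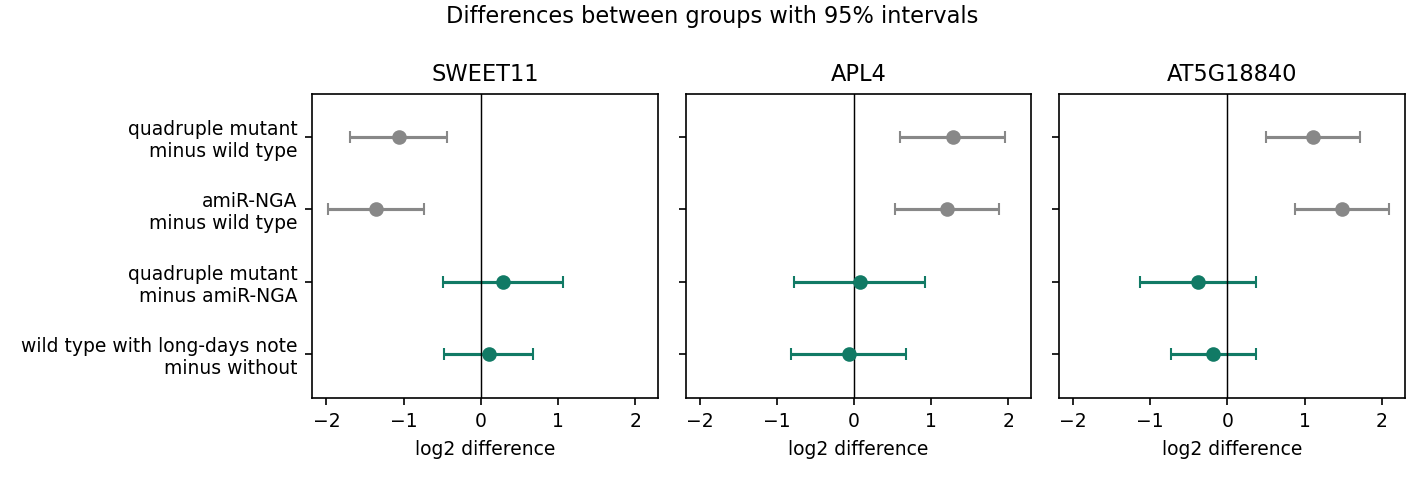
Log2 difference between groups (x axis) for the 4 contrasts (y axis), a panel a gene, with 95% intervals from the limma fit. Grey points against wild type are a description of how the genes were chosen; green points, quadruple mutant minus amiR-NGA and the long-days note, were tested, and all 6 intervals include 0.

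Among the 7 wild-type arrays alone the 3 genes could be compared with each other without the nga-deficient arrays. APL4 and AT5G18840 had Pearson's r = 0.57 (exact permutation p = 0.186) and Spearman's rho = 0.50 (exact permutation p = 0.267), and r = 0.36 without the 2 arrays farthest from the median of APL4. SWEET11 and APL4 had r = -0.17 (exact permutation p = 0.694) and rho = -0.21 (exact permutation p = 0.662), and r = -0.41 without the 2 arrays farthest from the median of SWEET11. SWEET11 and AT5G18840 had r = -0.12 (exact permutation p = 0.780) and rho = -0.07 (exact permutation p = 0.906), and r = 0.01 without the same 2 arrays. None of the 3 relations passed: the lowest exact permutation p adjusted over the 3 was 0.559 for r and 0.800 for rho. The subset with low NGA1 holds 4 arrays and that with high NGA1 holds 3, too few for a correlation within either.

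Other genes ran close to these 3 over the 11 arrays. Each of 10055 kept probe sets of 1 gene was centred on its wild-type mean, and likeness was the root-mean-square difference from the gene over the 11 arrays, in log2 units. The loci nearest to SWEET11 were AT4G28290 at 0.31, AT1G67870 at 0.33 and AT4G28240 at 0.36, against a median of 0.83 over all candidates. Their nga-deficient minus wild-type log2 differences were -1.35, -1.17 and -1.22. Nearest to APL4 were AT2G43550 at 0.24, AT2G34810 at 0.27 and AT3G13650 at 0.31 (median of all 0.88), with log2 differences of 0.92, 1.20 and 1.23. Nearest to AT5G18840 were AT3G53370 at 0.36, AT1G64380 at 0.39 and AT2G27740 at 0.40 (median of all 0.90), with log2 differences of 0.84, 1.01 and 1.31. The neighbours of APL4 also shared its low values on wild type 1 and 2. The likeness was computed on the arrays that chose the 3 genes and is a description.

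**Figure D3:**
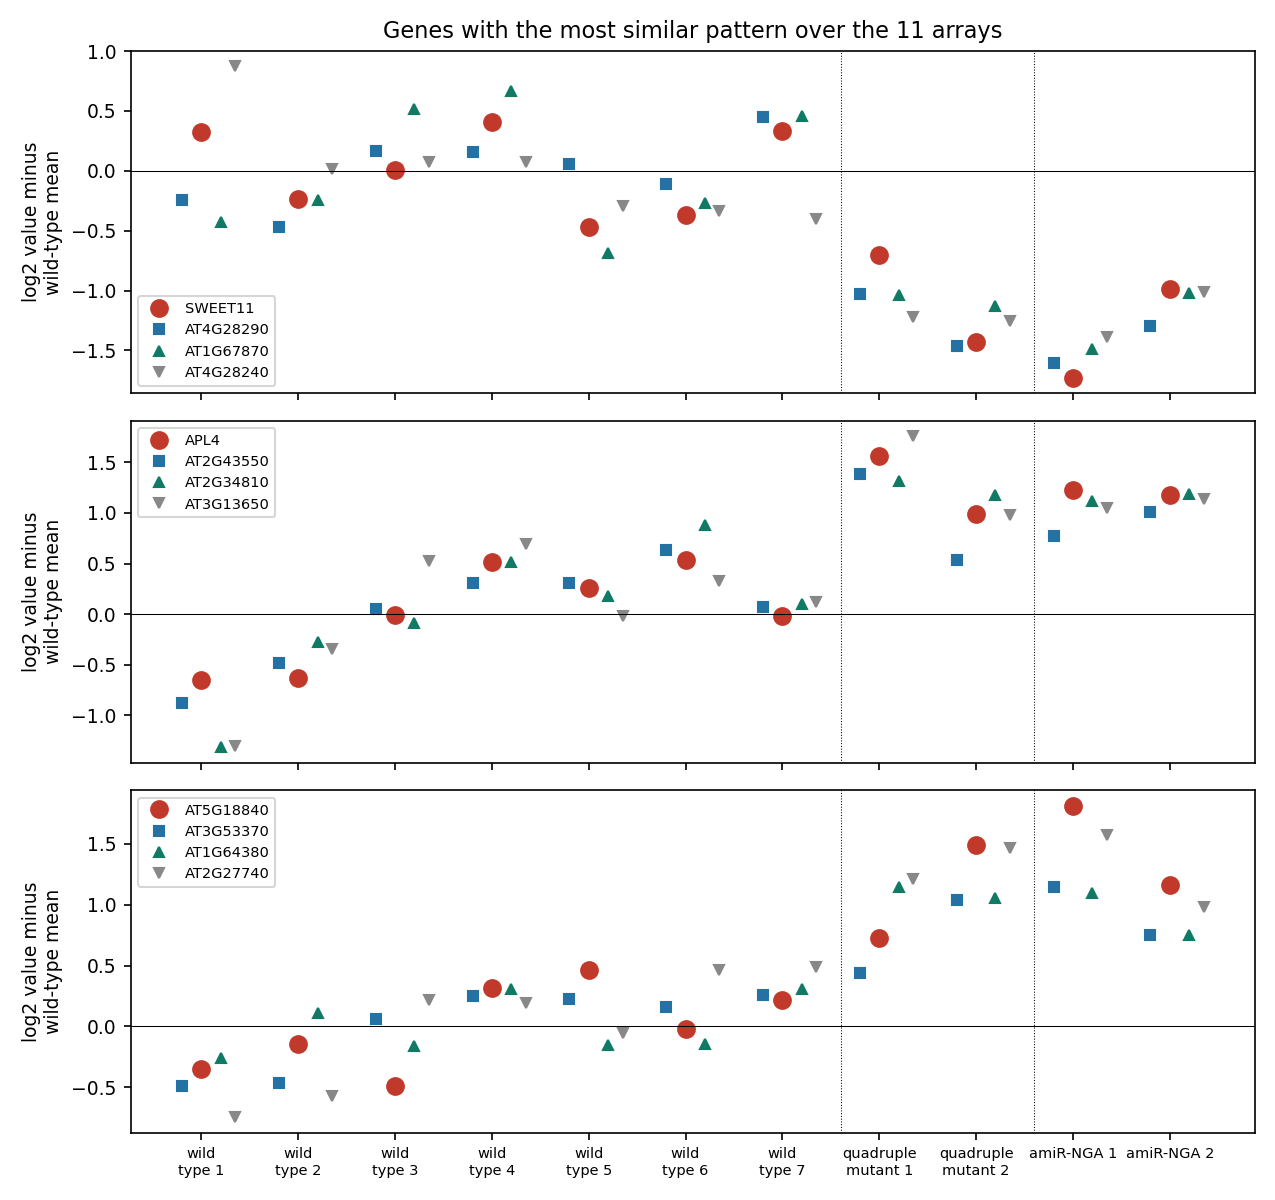
Log2 value minus the wild-type mean (y axis) on each of the 11 arrays (x axis) for SWEET11, APL4 and AT5G18840 (red circles) and the 3 genes nearest to each; points are single arrays. The neighbours of SWEET11 lie below 0 on all 4 nga-deficient arrays and those of APL4 and AT5G18840 above 0.

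The wider sugar and starch pathway was read from 9 lists with 142 entries, of which 46 matched a probe set of 1 gene and 43 passed the filter, or 40 without the 3 genes above. In nga-deficient arrays against wild type 792 of all kept probe sets (4.42%) passed the limma threshold of 0.05 after adjustment, 239 higher (1.33%) and 553 lower (3.09%), or 315 higher and 467 lower when arrays were centred on their medians. Of the 40 pathway genes 1 was higher and 1 lower (5.0%), a share near that of all probe sets, and their median log2 difference was 0.04 against -0.02 for all. The gene that rose, APL3, is another large subunit of ADP-glucose pyrophosphorylase, and the gene that fell, SFP1, is an ERD6-like transporter. In the quadruple mutant 2 of 40 rose and none fell (5.0%, against 4.17% of all kept probe sets, 1.94% higher and 2.23% lower), and in amiR-NGA 0 of 40 passed (against 0.932% of all). Unadjusted limma p-values under 0.05 were found for 3806 of all probe sets in the quadruple mutant and 2263 in amiR-NGA. When arrays were weighted 5 of the 40 passed in amiR-NGA, beside 1650 of the 17910 kept probe sets. In quadruple mutant minus amiR-NGA and in the long-days contrast 0 of 40 passed by limma, or 0 and 2 with array weights. In the long-days contrast 446 of all kept probe sets passed with those weights.

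APL3 (AT4G39210), the other large subunit of the enzyme measured here, read 4.42, 4.75, 4.95, 4.97, 5.30, 5.53 and 5.24 on wild type 1 to 7. It read 5.84 and 5.62 in the quadruple mutant and 5.89 and 5.82 in amiR-NGA, so that 4 of 4 nga-deficient arrays were above all wild-type arrays. Its mean rose from 5.02 ± 0.37 (SD, n = 7) to 5.79 ± 0.12 (SD, n = 4), 1.70-fold (log2 difference 0.77, SE 0.18, limma adjusted p = 0.0323). APL3 and APL4 were thus both higher on every nga-deficient array, and both were lowest on wild type 1 and 2. Of the 6 ADP-glucose pyrophosphorylase genes listed, only these 2 matched a probe set of 1 gene. The call of APL3 ended in 9 of the 23 alternative fits that tested it (adjusted p up to 0.178). Among them were those without wild type 3, without wild type 4 and without any 1 of the 4 nga-deficient arrays. The others had the long-days note as a covariate, controls without the note, or wild type 5 to 7, the arrays with high NGA1, as controls. The log2 difference of APL3 was 1.01 against wild type 1 to 4 and 0.43 against wild type 5 to 7 (limma adjusted p = 0.0119 and 0.141). The probe sequences were not used here, so cross-hybridization between APL3 and APL4, or between members of the transporter families, was not tested.

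SFP1 (AT5G27350), in the same transporter group as AT5G18840, moved the other way. It read 4.86, 4.85, 5.54, 5.26, 5.18, 5.14 and 4.56 on wild type 1 to 7, 4.42 and 4.65 in the quadruple mutant and 4.22 and 4.27 in amiR-NGA. Its mean was 1.58-fold lower, 4.39 ± 0.20 (SD, n = 4) against 5.05 ± 0.32 (SD, n = 7) (log2 difference -0.66, SE 0.17, limma adjusted p = 0.0442), with 3 of 4 nga-deficient arrays below all wild-type arrays. Its call ended in 17 of 23 alternative fits (adjusted p up to 0.199). The nga-deficient values of SFP1 lay close to the filter minimum of 4, and a stricter minimum of 6 left the gene out. The other 8 kept ERD6-like genes did not pass: AT3G20460 differed by 0.38, AT3G05150 by 0.25, SFP2 by 0.08, AT3G05400 by -0.10, AT4G04760 by -0.16, AT1G19450 and AT1G54730 by -0.18 and AT4G04750 by -0.21 on the log2 scale. Of the 19 listed genes of this group 10 matched a probe set, AT5G18840 among them.

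None of the other 14 kept SWEET genes passed in any of the 5 contrasts as fitted here, against 0% to 4.42% of all kept probe sets. The nga-deficient minus wild-type log2 differences of the 14 ran from -0.20 to 0.98 with a median of 0.22. SWEET11, at -1.21, was chosen from this contrast, so its place below the other 14 is not a result. The largest was that of AtVEX1, the RefSeq name of SWEET5 (0.98, SE 0.63), followed by SWEET13 (0.75), SWEET7 (0.68, SE 0.27), SWEET10 and SWEET14 (both 0.61), SWEET4 (0.45), SWEET17 (0.24) and SAG29, also called SWEET15 (0.19). SWEET8 (0.08), SWEET6 (0.03), SWEET16 (-0.02), SWEET1 (-0.13), SWEET3 (-0.16) and SWEET2 (-0.20) lay nearer to 0. In alternative fits some of them did pass. The replicate block compares arrays of the same number. Wild type 3 to 7 have no partner of their number, so wild type 1 and 2 alone served as controls there. Both are arrays of large actin difference. With the replicate block SWEET10 passed in nga-deficient arrays (log2 difference 1.85, limma adjusted p = 0.0344) and in amiR-NGA (2.26, 0.0408), and SWEET17 in nga-deficient arrays (0.64, 0.0407). More of all kept probe sets passed with that block in both contrasts as well, by the counts given below. In the quadruple mutant SWEET7 passed without wild type 5 (log2 difference 1.16, limma adjusted p = 0.0440). Without quadruple mutant 2 the genotype rested on quadruple mutant 1 alone, an array of large actin difference. The log2 differences from wild type were then 3.19 for AtVEX1, 2.69 for SWEET13 and 1.64 for SWEET14. That of SWEET13 from amiR-NGA was 2.55. On quadruple mutant 2 itself AtVEX1, SWEET13 and SWEET14 read 6.82, 5.30 and 4.55. With array weights AtVEX1 (log2 -1.49, limma adjusted p = 0.0425) and SWEET8 (-0.71, 0.0268) were lower in wild type with the long-days note. They were among 446 probe sets that passed with those weights. SWEET9, the exporter of nectaries, matched a probe set but did not pass the filter, and SWEET12 was not analysed here.

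**Figure D4:**
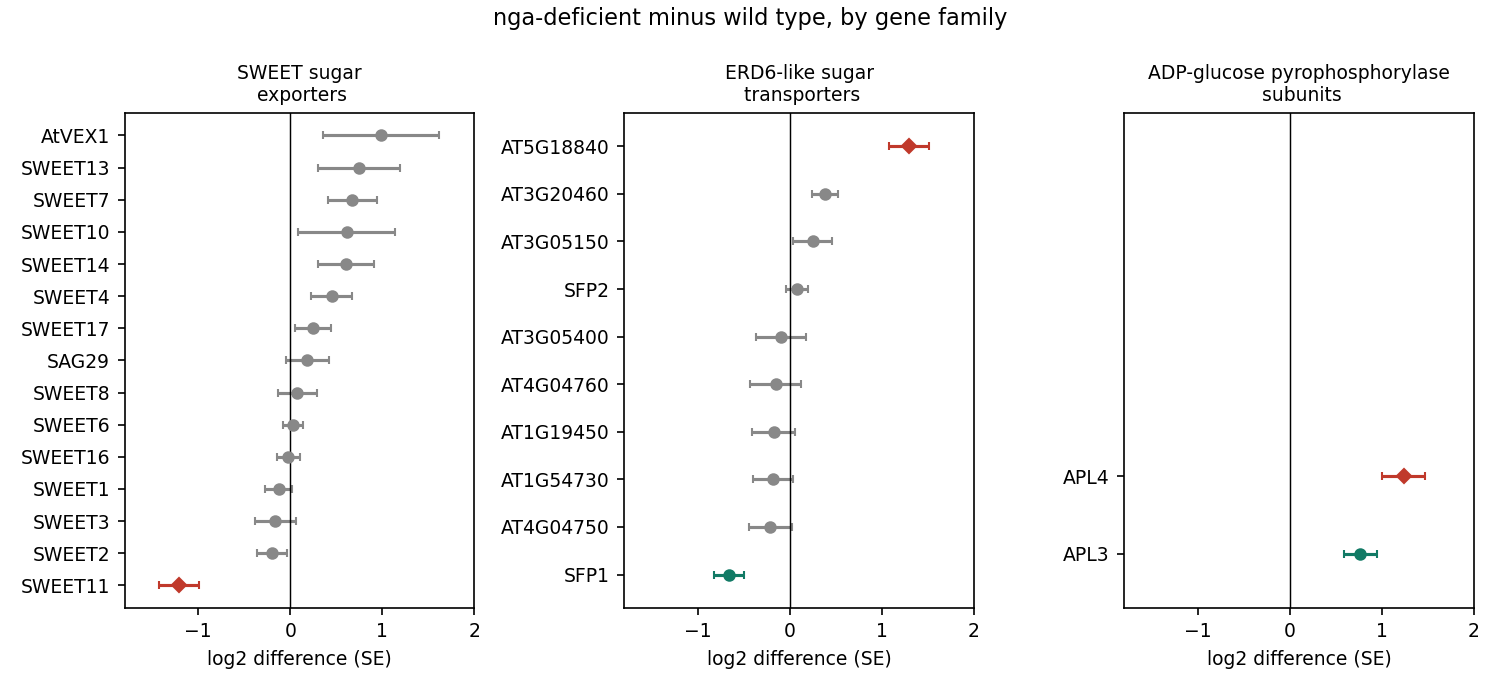
Log2 difference, nga-deficient minus wild type (x axis, with SE bars), for each kept gene of the SWEET, ERD6-like and ADP-glucose pyrophosphorylase lists (y axis). Red diamonds are the 3 genes described throughout, chosen from this contrast; green circles, APL3 and SFP1, passed the limma test and grey circles did not.

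The quadruple mutant differed from wild type in 2 other pathway genes. TMT3 (AT3G51490), a sugar transporter of the vacuolar membrane, read 5.57 to 6.67 on the 7 wild-type arrays (median 6.24), 8.55 and 7.57 in the quadruple mutant and 7.47 and 5.95 in amiR-NGA. It rose 3.74-fold in the quadruple mutant (log2 difference 1.90, SE 0.37, limma adjusted p = 0.0194), a call that ended in 8 of 25 alternative fits (adjusted p up to 0.406, without quadruple mutant 1). AT1G62660, from the list of sucrose synthesis and cleavage, read 5.63 to 6.44 in wild type (median 6.18), 7.44 and 7.13 in the quadruple mutant and 6.36 and 5.96 in amiR-NGA. It rose 2.23-fold in the quadruple mutant (log2 difference 1.16, SE 0.20, limma adjusted p = 0.0121), and the call ended in 4 of 25 alternative fits (adjusted p up to 0.272). The difference between the 2 genotypes did not pass for TMT3 (log2 1.35, SE 0.46, limma adjusted p = 0.634) or AT1G62660 (log2 1.13, SE 0.25, limma adjusted p = 0.251).

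The remaining lists held no gene past the threshold in nga-deficient arrays against wild type as fitted here. The 3 kept hexose-proton symporters had log2 differences of -0.61 to 0.06, and the 5 other monosaccharide and polyol transporters -0.25 to 1.23, the highest being TMT3. 2 of the 3 symporters, AT5G61520 and AT1G34580, passed when wild type 1 was left out (log2 differences -0.74 and -0.50, limma adjusted p = 0.0368 and 0.0489). They also passed without the 3 arrays of large actin difference (log2 -0.80 and -0.56, limma adjusted p = 0.00659 and 0.0237) and with array weights (log2 -0.71 and -0.63, limma adjusted p = 0.00184 and 0.00187). With those weights 2977 of all kept probe sets passed, against 792 as fitted. AT5G61520 also passed against wild type 5 to 7 (log2 -0.91, limma adjusted p = 0.0363). The 2 genes of starch synthesis and plastid sugar import differed by -0.17 and -0.08, the 3 of starch breakdown by -0.05 to 0.24, and the 3 of sucrose synthesis and cleavage by 0.02 to 0.60. No sucrose-proton symporter of the 9 listed matched a probe set of 1 gene.

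Markers of other tissues were read beside the 3 genes. Of 17 listed genes of green photosynthetic tissue 6 matched a probe set of 1 gene, and all 6 were kept. Of these 4 fell in nga-deficient arrays (3.09% of all kept probe sets were lower). Against wild type 5 to 7, the arrays with high NGA1, 1 passed. Of all kept probe sets 122 then passed, in place of 792. HPR, a photorespiratory enzyme, fell by 1.24 log2 units (limma adjusted p = 0.000253), LHCB4.2, a light-harvesting protein, by 0.99 (0.00549), PRK, a Calvin cycle enzyme, by 0.76 (0.00437) and RCA, the Rubisco activase, by 0.54 (0.0332). LHCB4.1 (-0.36) and SBPASE (-0.42) did not pass. The marker list was chosen with earlier results of these data known, so these calls are a description. The summed level of the 6 was 14.51 to 14.88 on the log2 scale in wild type, 14.18 to 14.24 in the quadruple mutant and 13.95 to 13.97 in amiR-NGA, so all 4 nga-deficient arrays lay below all wild-type arrays, and SWEET11, AT5G18840 and APL4 also separated these 4 arrays from wild type. Their part in the results for these genes was not tested. Of 16 listed tapetum and pollen markers 7 were kept, and 0 of these passed in nga-deficient arrays by limma. Their summed level overlapped (11.98 to 12.64 in wild type, 12.04 to 12.42 in nga-deficient arrays). The sum adds unlogged values, so it mainly follows AT5G07230 (wild-type mean 12.11, with ACT11 next at 8.51) and says little about the others. Of the 7 markers 5 had a positive log2 difference and 2 a negative one, with a median of 0.36. In the quadruple mutant AGL104, a regulator of late pollen genes, was 1.57 log2 units higher (limma adjusted p = 0.0282).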

How the data were processed

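RNA of 11 inflorescence samples was measured on Affymetrix ATH1 arrays. The deposited values are log2 expression made by the authors with GCRMA in R 2.7.2 and Bioconductor 2.2, per the submitters' processing notes; they ranged from 2.61 to 14.37, with array medians of 6.08 to 6.27, and were used as deposited. Precision is limited by how few arrays each group has. Of 22810 probe sets, 64 controls were left out and 17910 kept (log2 value of at least 4 on at least 4 arrays). Genes were named from the platform annotation and RefSeq (TAIR10.1): 13513 probe sets had 1 gene, 503 several and 8730 were not listed, and 13436 of the first matched a RefSeq gene.

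Groups were compared with limma 3.58.1 (R 4.3.3; lmFit and eBayes, two-sided, Benjamini-Hochberg over all kept probe sets, threshold 0.05), tested first on simulated data. The pooled nga-deficient contrast had 2 groups and the genotype contrasts 3 groups in 1 fit. The long-days contrast used the wild-type arrays alone. An exact permutation test of 3 against 4 arrays cannot go below p = 0.0571. The genes and lists were chosen with earlier results of these data known. Named are the 3 genes, list genes past the threshold, all kept SWEET, ERD6-like and ADP-glucose pyrophosphorylase genes, and the 3 genes most alike to each. Of several probe sets for a gene in the lists, that with the highest mean was used. Alternatives changed the filter, scaling, array weights, controls, replicate block and covariate, or left out arrays; those using wild type 1 to 4 or 5 to 7 alone were chosen after seeing the data.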

Additional observations from a re-analysis of the deposited data

How the results depend on the processing

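The differences of SWEET11, APL4 and AT5G18840 from wild type kept their direction in 222 of 222 alternative values. For each gene every nga-deficient array lay beyond every wild-type array, so any choice of arrays had to give that direction. Nothing is read from the count. Of the 222 values 4 moved by more than the spread between replicates. With the replicate block the APL4 log2 difference was 1.88 (nga-deficient), 1.91 (quadruple mutant) and 1.84 (amiR-NGA), and without the 3 arrays of large actin difference it was 0.74 in the quadruple mutant. In every fit against wild type with the replicate block, wild type 1 and 2 alone served as controls. Both are among those 3 arrays. Leaving out an array gave -1.38 to -1.04 for SWEET11, 1.13 to 1.33 for APL4 and 1.12 to 1.49 for AT5G18840 in nga-deficient arrays, and -1.43 to -0.70, 0.99 to 1.56 and 0.72 to 1.49 in the quadruple mutant. In amiR-NGA the ranges were -1.73 to -0.99, 1.10 to 1.29 and 1.16 to 1.81. In the 2 tested contrasts 15 of 102 values changed sign and 0 passed (lowest limma adjusted p = 0.0959). Without the 3 arrays quadruple mutant minus amiR-NGA was -0.073, -0.21 and 0.00018 for SWEET11, APL4 and AT5G18840, and the APL4 long-days difference 9.6e-05. Leaving out an array gave -0.078 to 0.66, -0.21 to 0.35 and -0.76 to 0.00018 between genotypes, and -0.0704 to 0.25, -0.35 to 0.23 and -0.39 to 0.0076 for the long-days note, for which array weights gave 0.39, -0.26 and -0.59.

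The pathway count of 2 in nga-deficient arrays became 1 with no filter, quantile normalization, controls with the note, wild type 1 to 4 or 5 to 7, 0 with a stricter filter, the covariate or controls without the note, 3 with the replicate block or without the 3 arrays, 8 with array weights and 0 to 4 with an array left out. The count of 2 in the quadruple mutant became 1 with the block, covariate, controls with the note or wild type 5 to 7, 0 without the note, 3 against wild type 1 to 4 and 0 to 5 with an array left out. The amiR-NGA count of 0 became 5 with weights, 2 with the block, 3 without the 3 arrays and 0 to 1 with an array left out. Counts of 0 became 0 to 1 between genotypes and, with weights, 2 for the note.

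Of all probe sets, 792 in nga-deficient arrays became 2977 with weights, 1932 with the block, 256 with the covariate, 229 and 141 with controls with and without the note, 516 and 122 with wild type 1 to 4 and 5 to 7, and 229 to 973 with an array left out. In the quadruple mutant 747 became 252 with the block, 236, 204, 132, 443 and 191 with those covariate and control choices, 124 without the 3 arrays and 39 to 963 with an array left out. In amiR-NGA 167 became 1650 with weights, 859 with the block, 81, 48, 35, 78 and 43 with those choices, 420 without the 3 arrays and 5 to 212 with an array left out. Between genotypes 24 became 12 with the stricter filter, 45 with weights, 2 with the block or only the 2 genotypes, and 13 to 179. For the note 0 became 446 with weights and 1 without the 3 arrays, or 0 to 1. The green marker count of 4 became 6 with weights, 5 without the 3 arrays, 2 against controls without the note and 1 against wild type 5 to 7. The cause of these changes was not tested.

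The labels do not say whether arrays of the same number were grown or processed together. For replicates 1 and 2, deviations from the group means correlated at 0.29 between quadruple mutant and amiR-NGA. They correlated at 0.17 and -0.27 between wild type and quadruple mutant, and at 0.04 and -0.18 between wild type and amiR-NGA. With 2 arrays a genotype the deviations are mirror images of each other, so these values cannot decide it.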

Other observations

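Several sugar exporters and pollen genes stood high on quadruple mutant 1, and others low; these genes were chosen after their values were seen. Of 16 matched SWEET genes 7 had their highest value of the 11 arrays there and 2 their lowest, and of 7 tapetum and pollen markers 4 had their highest and 2 their lowest. The share of all kept probe sets with an extreme on that array was not computed. Nothing particular to these genes is therefore read from the counts. On the log2 scale AtVEX1 (SWEET5) read 9.09 on that array, against 4.91 to 7.54 on the other 10. SWEET9, the nectary exporter that did not pass the filter, read 6.53 against 3.61 to 4.21. SWEET13 read 7.96 against 4.77 to 6.05, and SWEET14 6.28 against 4.28 to 5.69. The pollen genes AGL66 (6.30 against 3.75 to 4.9996), AGL104 (6.39 against 3.64 to 5.36) and PLIM2b (8.07 against 5.87 to 7.09) were highest there too. SWEET3 (8.85 against 9.38 to 10.38), SAG29 (SWEET15; 7.22 against 7.43 to 8.52), AMS (5.95 against 6.12 to 7.25) and AT5G07230 (11.59 against 11.74 to 12.46) were lowest there. Quadruple mutant 1 is also among the 3 arrays with a large actin 3′ minus 5′ difference, and its part in these values was not tested. SWEET11 and AT5G18840 were nearer to wild type on this array than on quadruple mutant 2, and APL4 farther from it.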
